A study of Mus musculus with 8 samples.

Results

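The complement components and regulators studied here are 8 mouse genes: C3, the central component; the proteases Cfb, Cfi and C1ra; Serping1, the C1 inhibitor; and the membrane regulators Cd46, Cd55 and Cd59a. Members were taken as probe sets to which the platform annotation gives exactly 1 of these symbols. This found 7 of the 8 genes among 19938 genes, each with 1 probe set. C3 was not analysed here. Complement is a cascade of plasma proteases. The C1 complex or the lectin pathway proteases start it on antibody or sugar surfaces, factor B drives the alternative pathway, and all routes meet at the cleavage of C3. Host cells keep it in check with C1 inhibitor, with factor I and its membrane cofactors, with decay accelerators of the convertases, and with CD59, which blocks the terminal pore. The liver makes most circulating complement, while fibroblasts, osteoblasts and carcinoma cells are known to make some components themselves.

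Expression was measured on 8 Affymetrix MoGene ST arrays, 2 in each of 4 groups, and all sample descriptions name 24 h. MBA-15 is a pre-osteoblastic stromal line of mouse, and DA3 is a line from a mouse mammary adenocarcinoma. The groups are co-cultured MBA-15, MBA-15 labelled as grown alone, co-cultured DA3 and DA3 labelled as grown alone (lone DA3 below), with no added agent or gene change named in the labels. The descriptions of the 4 arrays labelled alone also carry the word mix and do not say what was mixed, so lone DA3 is a label too, and it serves below as the DA3 end of the comparisons and shares. In co-culture DA3 cells were seeded onto an MBA-15 layer, and magnetic particles that bind EpCAM afterwards pulled out the DA3 fraction, which carries it. Each line is a single established line, and the labels do not say that the 2 arrays of a group come from separate cultures, so p-values measure a spread that may be technical. The descriptions also carry an assay number of unstated meaning. Number 4 is on array 1 of both MBA-15 groups and of lone DA3, number 5 on array 2 of co-cultured DA3, and number 3 on the other 4 arrays.

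The fractions were checked against their markers before the members were compared. Epcam, the gene used for the separation, had log2 levels of 5.58 and 5.19 in co-cultured MBA-15, 8.45 and 9.25 on the MBA-15 arrays labelled alone, 9.30 and 9.38 in co-cultured DA3 and 9.57 and 9.46 in lone DA3. The MBA-15 arrays labelled alone thus go against their label. On them 14 of 14 epithelial markers lay above the array median, where co-cultured MBA-15 had 10 and 7, and 30 genes far higher in lone DA3 than in co-cultured MBA-15 stood at a median of 39.4% and 59.9% of the way to their DA3 level. The 30 genes overlap with the epithelial markers, as Epcam, Cdh1, Krt7, Krt18, Esrp1, Cldn3, Cldn4, Cldn7 and Rab25 are in both sets. On the co-cultured DA3 arrays 52 genes far higher in MBA-15 stood at 5.28% and 4.70% of the way to their MBA-15 level. The mean level of 14 stromal markers was 8.056 and 7.777 in co-cultured MBA-15 and 4.997 and 5.018 in lone DA3. On the MBA-15 arrays labelled alone it was 7.528 and 7.503. Co-culture minus labelled alone ran from -0.238 (Twist1) to 1.196 (Zeb2), with 0.155 for Col1a1, 0.213 for Vim and 0.984 for Zeb1. Whether the stromal markers give the same DA3 share was not tested. The comparison of the MBA-15 groups is given below with and without a matched share of DA3 RNA, taken from the 30 genes. Whether these fractions are mixed was not tested. Where a fraction is mixed, fewer cells of a type and less RNA per cell cannot be told apart. Of 9 leukocyte markers 1 or 2 lay above the array median on each array: Cd68 on 8 arrays and Cd14 on 2, while Ptprc, the pan-leukocyte marker, did so on 0. Endothelial markers (7) lay above it on 0 arrays, and hepatocyte markers (7) on 0 of the MBA-15 arrays with 1 or 2 on each DA3 array. Of 6 adipocyte markers 0 to 2 lay above it on each array, among them Lpl at 4.96 to 7.88 on the MBA-15 arrays.

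The members were dim. The median log2 level of an array, over all probe sets, was 4.479 to 4.642, and the mean level of the members lay between the 5.17 percentile (Cfi) and the 53.4 percentile (C1ra) of all genes. C1ra was above the median of its array on 6 of 8 arrays, Serping1, Cd59a and Cd46 on 2 each, Cd55 on 1, and Cfb and Cfi on 0. A difference whose lower level lies below the array median may be understated on the log2 scale. This holds for every difference between the lines given below for Serping1, Cd46, Cd55 and Cd59a, and for C1s1, C1s2 and C3ar1. Of the other complement genes called, it also holds for Clu, Itgb2 and Cd93, and for Masp1 against lone DA3. It holds in part for C1ra, which lay below the median on array 2 of co-cultured DA3 (4.20) and array 1 of lone DA3 (4.36).

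C1ra, the protease of the C1 complex that cleaves C1s, and Cd46 were the members that passed a test between the lines. C1ra lies in a tandem cluster of protein-coding genes in the order C1rl, C1ra, C1s1, C1rb and C1s2, and C1s1 and C1s2 passed between the lines as well. The stretch of 250 bases before the start site is shown for C1ra, C1s1 and C1s2, which passed in at least 1 comparison between the lines, and for Cd46. C1rl, in the same cluster, did not pass, with a difference of 0.15 ± 0.21 between co-cultured MBA-15 and lone DA3 (limma, adjusted p = 0.792) and of 0.56 ± 0.21 between the co-cultured lines (0.144). RefSeq windows on GRCm38.p6 were at hand for 5 of the 8 members and for 5 of the 10 complement genes that passed a test. For C1s1, with 2 start sites listed, the one farthest upstream was used. Capitals mark matches, on either strand, to 4 motifs, namely TATAAA of the core promoter, the box CCAAT, the STAT factor element TTCNNNGAA and the loose C/EBP pattern TTNNGNAA. The windows are C1ra at chr6:124512371-124512620 on the plus strand, C1s1 at chr6:124542360-124542609, C1s2 at chr6:124636086-124636335 and Cd46 at chr1:195092249-195092498, the last 3 on the minus strand.
C1ra: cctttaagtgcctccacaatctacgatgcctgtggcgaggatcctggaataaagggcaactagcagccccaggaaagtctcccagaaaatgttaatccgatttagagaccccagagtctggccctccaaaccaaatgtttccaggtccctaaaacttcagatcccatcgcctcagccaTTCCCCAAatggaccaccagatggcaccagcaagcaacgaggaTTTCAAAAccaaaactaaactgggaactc
C1s1: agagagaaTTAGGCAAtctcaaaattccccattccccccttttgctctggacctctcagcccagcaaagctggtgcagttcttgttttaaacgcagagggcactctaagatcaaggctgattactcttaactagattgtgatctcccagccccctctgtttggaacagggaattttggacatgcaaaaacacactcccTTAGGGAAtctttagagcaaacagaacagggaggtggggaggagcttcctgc
C1s2: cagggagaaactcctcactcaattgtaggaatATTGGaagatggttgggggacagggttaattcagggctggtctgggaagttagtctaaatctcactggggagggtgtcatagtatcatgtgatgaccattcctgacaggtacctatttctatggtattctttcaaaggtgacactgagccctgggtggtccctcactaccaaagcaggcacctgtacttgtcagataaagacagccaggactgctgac
Cd46: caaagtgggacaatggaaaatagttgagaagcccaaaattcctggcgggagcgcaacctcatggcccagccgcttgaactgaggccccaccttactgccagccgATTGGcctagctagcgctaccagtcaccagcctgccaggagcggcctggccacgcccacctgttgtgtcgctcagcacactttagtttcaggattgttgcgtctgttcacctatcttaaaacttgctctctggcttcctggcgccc
C1ra held the C/EBP letters 72 and 29 bases before its start and C1s1 held them 242 and 52 bases before, while C1s2 and Cd46 each held 1 CCAAT box read on the other strand. These are common letters. Of 32851 promoter windows of the same length, 36.8% held TTNNGNAA and 33.85% CCAAT, against 12.4% for TATAAA and 7.02% for TTCNNNGAA, neither of which was found in these 4 windows. The 4 windows are 48.0 to 56.8% G and C, where the median of all windows is 52.4%.

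C1ra was the brightest member relative to its arrays and was higher on every array of the MBA-15 fractions than on every DA3 array. Its log2 level was 5.59 and 5.22 in co-cultured MBA-15, 5.46 and 5.62 on the MBA-15 arrays labelled alone, 4.68 and 4.20 in co-cultured DA3 and 4.36 and 4.74 in lone DA3. The MBA-15 groups overlap each other, and so do the DA3 groups. C1ra was higher in co-cultured MBA-15 than in co-cultured DA3 by 0.96 ± 0.23 log2 units (SE, 95% interval 0.41 to 1.51, limma with Benjamini-Hochberg adjustment over all genes, adjusted p = 0.0401). Against lone DA3, whose comparison shares the co-cultured MBA-15 arrays, the difference was 0.85 ± 0.23 and missed the threshold (limma, adjusted p = 0.0592), which it passed without either array of co-cultured DA3 (0.0416). The call against co-cultured DA3 was kept without array 1 of co-cultured DA3 and lost without any 1 of the other 7 arrays (adjusted p = 0.0638 to 0.146), with a block for the replicate number (0.0612), with a block for the assay (0.177) and with the arrays of the 2 groups alone (0.124). Where an array is left out, the other array of its group is assumed to vary like the remaining groups. A block for the assay fits array 2 of co-cultured DA3 exactly, as the only array of number 5. With that block, here and below, co-cultured DA3 therefore rests on its array 1. Within assay number 3 the difference was 0.54. Mouse carries the close copy C1rb, whose transcripts the C1ra probe set may read too.

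Serping1, the serpin that inhibits C1r, C1s and the MASP proteases, had log2 levels of 4.92 and 4.48 in co-cultured MBA-15, 4.89 and 4.13 on the MBA-15 arrays labelled alone, 3.87 and 4.15 in co-cultured DA3 and 3.95 and 3.90 in lone DA3. The high array of each MBA-15 group is the one of assay number 4, and the lower MBA-15 array labelled alone overlaps with co-cultured DA3. The difference between co-cultured MBA-15 and lone DA3 was 0.77 ± 0.28 (SE, limma, adjusted p = 0.14), with 0.97 within assay 4 and 0.58 within assay 3. Against co-cultured DA3 it was 0.69 ± 0.28 (limma, adjusted p = 0.164).

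Cfb and Cfi, the serine proteases that build the alternative pathway convertase and that degrade C3b and C4b, lay below the array median on all 8 arrays. Cfb ranged from 3.81 to 4.16 and its 4 group means span 0.23 log2 units. Cfi ranged from 3.39 to 3.89, was lowest in co-cultured MBA-15 (3.41 and 3.39) and was highest in co-cultured DA3 (3.59 and 3.89). Its difference between co-cultured MBA-15 and co-cultured DA3 was -0.34 ± 0.14 (limma, adjusted p = 0.168), or 0.0467 with a mean-variance trend. The intervals of Cfb, -0.25 to 0.47 against lone DA3 and -0.33 to 0.39 against co-cultured DA3, include 0. C2, the neighbour of Cfb in the genome and its counterpart in the classical pathway, was also below the median on all 8 arrays.

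**Figure D1:**
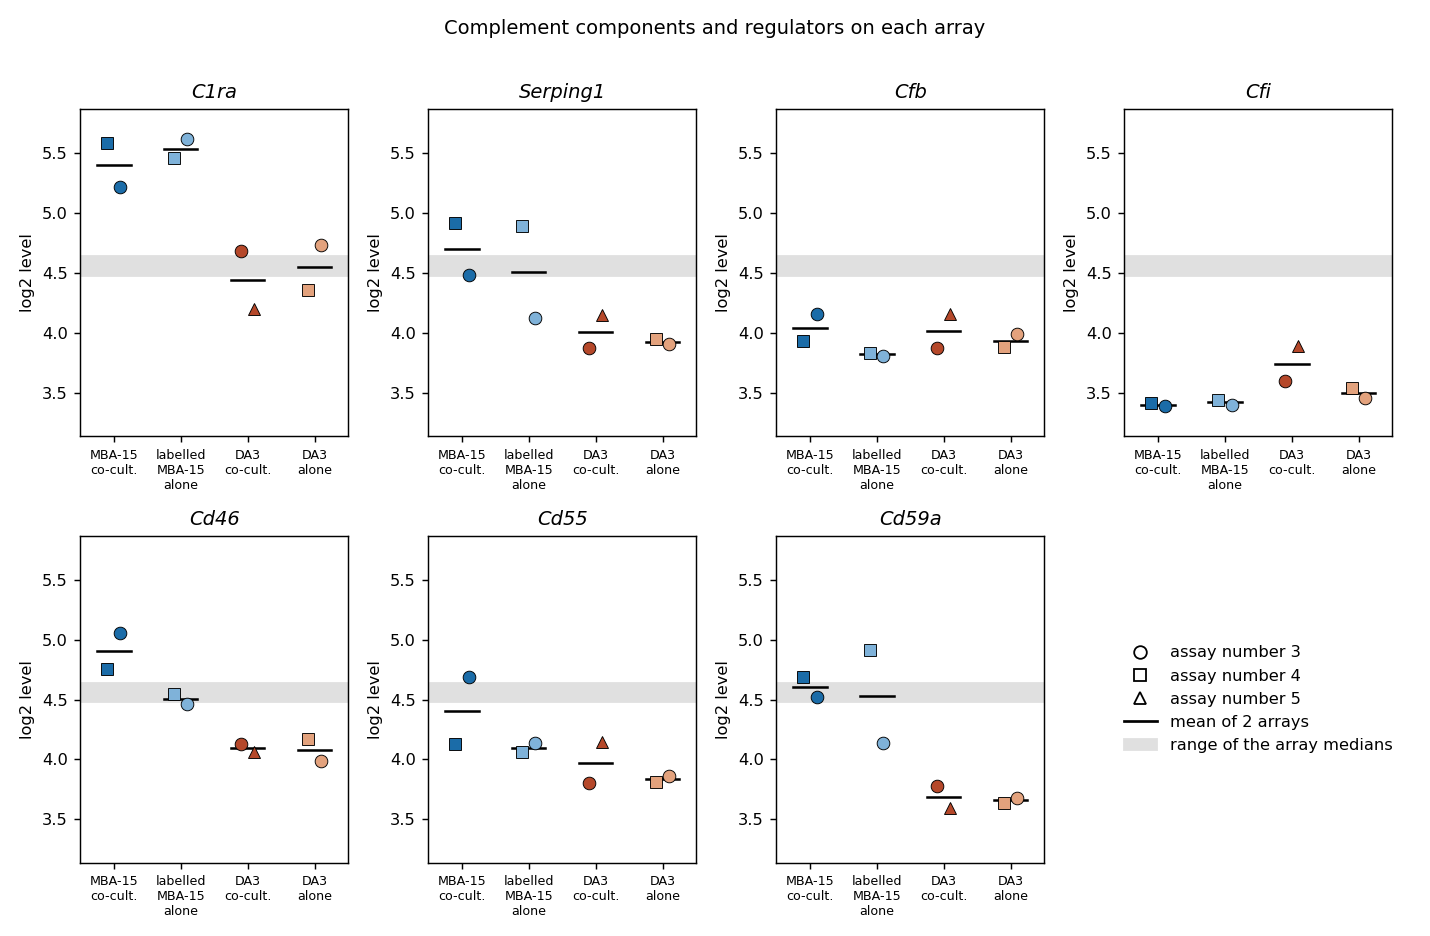
Log2 level of the 7 measured members on each of the 8 arrays, by group; symbols give the assay number, lines the mean of 2 arrays and the grey band the range of the array medians (4.479 to 4.642). C1ra, with 5.22 to 5.62 on the MBA-15 arrays, stands above the band there, Cd46 does so in co-cultured MBA-15, and Cfb and Cfi stay below it on every array.

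Among the membrane regulators Cd46 passed between the lines. It encodes a cofactor of factor I that in mouse is known chiefly from testis. Cd46 was at 4.76 and 5.06 in co-cultured MBA-15, 4.55 and 4.46 on the MBA-15 arrays labelled alone, 4.13 and 4.06 in co-cultured DA3 and 4.17 and 3.99 in lone DA3. No MBA-15 array overlaps with a DA3 array, co-cultured MBA-15 lies above the MBA-15 arrays labelled alone, and the DA3 groups overlap. Cd46 was higher in co-cultured MBA-15 than in lone DA3 by 0.83 ± 0.15 log2 units (SE, 95% interval 0.47 to 1.18, limma, adjusted p = 0.0139), from 4.08 ± 0.13 to 4.91 ± 0.21 (SD, n = 2 arrays per group). Against co-cultured DA3 the difference was 0.81 ± 0.15 (limma, adjusted p = 0.0164). The call against lone DA3 was lost without array 2 of co-cultured MBA-15 (adjusted p = 0.0632) or either array of lone DA3 (0.0666 and 0.11). The call against co-cultured DA3 was lost without array 2 of co-cultured MBA-15 (0.0692) or array 2 of co-cultured DA3 (0.062), with a block for the assay (0.101) and with only the arrays of the 2 groups in the fit (0.0867).

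Cd55, the decay accelerator of the convertases, was at 4.13 and 4.69 in co-cultured MBA-15, 4.06 and 4.14 on the MBA-15 arrays labelled alone, 3.80 and 4.14 in co-cultured DA3 and 3.82 and 3.86 in lone DA3. Only array 2 of co-cultured MBA-15 stood clear of the others. Against co-cultured DA3, whose arrays overlap with co-cultured MBA-15, the Cd55 difference was 0.43 ± 0.21 (SE, limma, adjusted p = 0.242). The difference between co-cultured MBA-15 and lone DA3 was 0.57 ± 0.21 (limma, adjusted p = 0.156), with 0.31 within assay 4 and 0.82 within assay 3, and 0.85 (adjusted p = 0.0472) without array 1 of co-cultured MBA-15, which leaves only the high array 2 in that group.

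Cd59a, the broadly expressed mouse form of the inhibitor of the terminal pore, was at 4.69 and 4.52 in co-cultured MBA-15, 4.91 and 4.14 on the MBA-15 arrays labelled alone, 3.78 and 3.59 in co-cultured DA3 and 3.64 and 3.68 in lone DA3. Every MBA-15 array lies above every DA3 array, while the groups within each line overlap. The difference between co-cultured MBA-15 and lone DA3 was 0.95 ± 0.25 (95% interval 0.35 to 1.54) and just missed the threshold (limma, adjusted p = 0.0565). It was 1.05 within assay 4 and 0.84 within assay 3. Without either or both of the MBA-15 arrays labelled alone, the adjusted p was 0.0123, and with a block for the replicate number it was 0.0459. Against co-cultured DA3 the difference was 0.92 ± 0.25 (limma, adjusted p = 0.0612), and the adjusted p was 0.0154 without either or both of the same arrays and 0.0397 after quantile normalization.

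Counted together, 1 of the 7 measured members was called higher in co-cultured MBA-15 than in lone DA3 and 0 were called lower, where 12.6% of all 19938 genes were called in either direction, 6.08% higher and 6.47% lower. The median difference of the 7 was 0.77, against 0.0044 over all genes. In 5 members the arrays did not overlap, with co-cultured MBA-15 higher, which 27.2% of all genes show, and in 1, Cfi, with co-cultured MBA-15 lower (26.6%). Against co-cultured DA3 2 of 7 were called higher and 0 lower (12.8% of all genes in either direction, 8.28% higher and 4.48% lower), with a median of 0.69 against -0.07 over all genes, and 4 did not overlap, with co-cultured MBA-15 higher (23.3% of all genes), and 1, Cfi, with it lower (31.9%). When the variance was allowed to follow the mean level, 4 members were called in either direction in each comparison, among 2753 and 2908 genes called in all. Against co-cultured DA3 these include Cfi, which was lower in co-cultured MBA-15. In both comparisons the direction held under all settings tried for C1ra, Serping1, Cd46, Cd55 and Cd59a.

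By its labels, the comparison of MBA-15 from co-culture with the MBA-15 arrays labelled alone asks whether contact with carcinoma cells alters the stromal line. It cannot answer this, since the arrays labelled alone carry high epithelial markers. Of the 7 members 0 were called (limma, 0.848% of all genes called), and 1, Cd46, had an unadjusted p under 0.05, which 9.8% of all genes had. Cd46 differed by 0.40 ± 0.15 log2 units (95% interval 0.05 to 0.76, limma, adjusted p = 0.427), with 0.21 within assay 4 and 0.60 within assay 3. When DA3 RNA was mixed into the co-culture arrays at the share found on the MBA-15 arrays labelled alone, the difference of Cd46 was 0.04 ± 0.11. The other 6 members differed by -0.14 (C1ra) to 0.31 (Cd55), and their 95% intervals all include 0. The widest interval, that of Serping1, runs from -0.47 to 0.85. With the DA3 share mixed in, Serping1 (0.19 as deposited) stood at -0.12, Cd59a (0.08) at -0.31 and C1ra (-0.14) at -0.48, so the directions of Serping1 and Cd59a depend on that share. Taken from genes high in DA3, this share was not tested on genes high in MBA-15. The arrays of Cfb and Cd46 did not overlap, with co-culture higher, which 22.3% of all genes show. The median difference of the 7 was 0.19, against 0.04 over all genes.

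DA3 from co-culture was set against lone DA3 to ask, by its labels, whether co-culture alters the carcinoma line. Again 0 of 7 members were called (limma, 0.0401% of all genes called), and 0 had an unadjusted p under 0.05, which 14.9% of all genes had. The differences ran from -0.11 ± 0.23 (C1ra) to 0.25 ± 0.14 (Cfi), with a median of 0.08 against 0.04 over all genes. Cfi alone had arrays that did not overlap, with co-culture higher, which 31.4% of all genes show, and its interval ran from -0.08 to 0.58. The narrowest bounds were those of Cfi and of Cd46, which differed by 0.02 with an interval of -0.34 to 0.37. The direction of most of these small differences depended on the scaling. After quantile normalization of the deposited values Cfb (-0.071), Serping1 (-0.071), Cd55 (-0.0074), Cd59a (-0.091) and Cd46 (-0.15) turned below 0.

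The difference between the lines in the effect of co-culture was tested directly, and 0 of 7 members were called, with 0 at an unadjusted p under 0.05 (limma, 0.0602% and 6.32% of all genes). The largest value was that of Cd46, whose difference in DA3 minus that in MBA-15 was -0.38 ± 0.21 (95% interval -0.89 to 0.12, adjusted p = 0.896). For Cfi it was 0.27 ± 0.20.

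**Figure D2:**
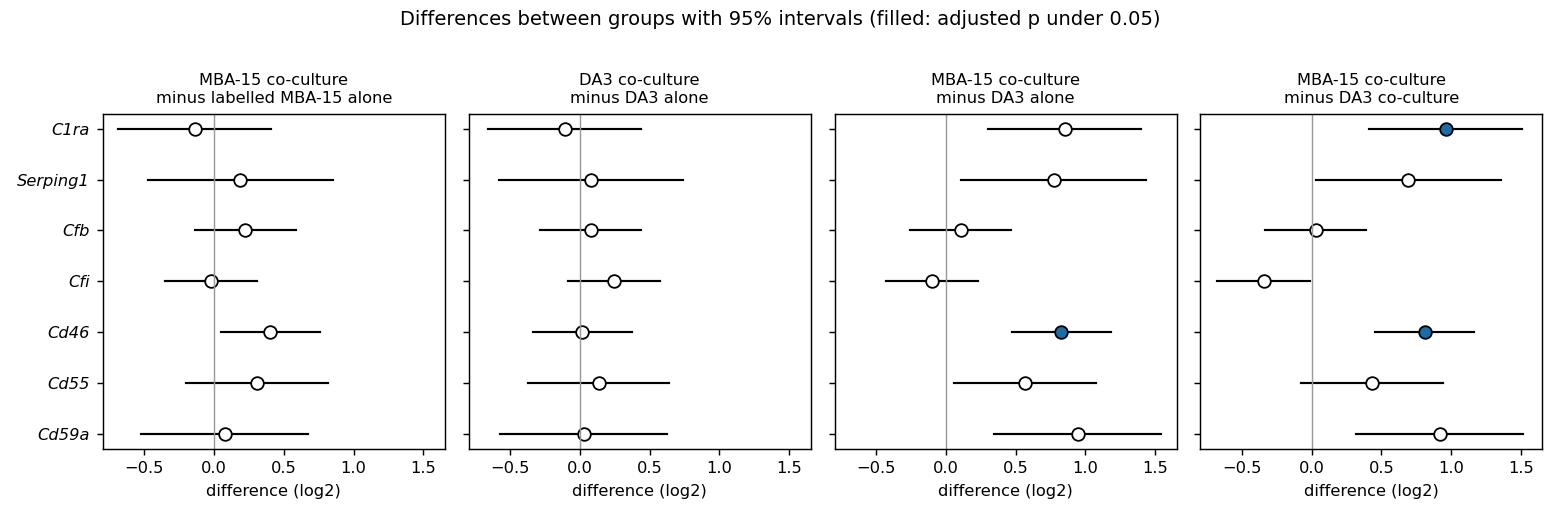
Difference in log2 level of the 7 members in 4 comparisons, with 95% intervals from limma over 8 arrays; filled points have an adjusted p under 0.05. Between the lines 5 members lie between 0.43 and 0.96, with Cd46 called against both DA3 groups and C1ra against co-cultured DA3, while within each line 0 of 7 were called.

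The remaining complement genes, a list drawn from the whole pathway, were measured for 44 of 54 symbols. Of these, 29 lay below the array median on all 8 arrays, among them the terminal components Hc, C6, C7, C8a, C8b, C8g and C9 and the components C2, C4a and C4b. Above the array median on all 8 arrays lay Colec12, C1qa, Cd59b and Cr1l. C1qb and C1qc, the other C1q genes, lay below it on all 8 arrays. Cr1l, chosen here after its values were seen, encodes Crry, the widely expressed membrane regulator of rodents, and ranged from 5.61 to 6.79. It was at 6.10 and 6.79 in co-cultured MBA-15 and at 6.03 and 5.96 in lone DA3. These do not overlap, with co-cultured MBA-15 higher, which 27.2% of all genes show. The difference was 0.45 ± 0.38 (limma, adjusted p = 0.597). Co-cultured DA3, at 5.61 and 6.73, overlaps with co-cultured MBA-15.

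Between co-cultured MBA-15 and lone DA3, 5 of the 44 were called higher and 2 lower, beside 6.08% higher and 6.47% lower of all genes, with a median of 0.06 against 0.0044 over all genes. The genes called higher were the proteases C1s1, C1s2 and Masp1 and the membrane proteins Colec12 and C3ar1. C1s1, a C1s gene, was at 6.91 and 5.80 in co-cultured MBA-15, 6.38 and 6.69 on the MBA-15 arrays labelled alone, 3.94 and 4.02 in co-cultured DA3 and 3.98 and 4.37 in lone DA3. No MBA-15 array came near a DA3 array, and the difference from lone DA3 was 2.18 ± 0.35 (limma, adjusted p = 0.00955), lost without array 1 of lone DA3 (0.08). C1s2, its tandem copy, differed by 1.16 ± 0.21 (adjusted p = 0.0135), lost without array 1 of co-cultured MBA-15 (0.0511) or either array of lone DA3 (0.101 and 0.0798). The 2 C1s genes are close copies whose probe sets may read each other. Masp1, the lectin pathway protease, differed by 1.94 ± 0.36 (adjusted p = 0.016), lost without array 1 of co-cultured MBA-15 (0.05) or either array of lone DA3 (0.0932 and 0.103).

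Colec12, a membrane collectin that binds sugars, was at 8.62 and 8.12 in co-cultured MBA-15, 8.01 and 7.80 on the MBA-15 arrays labelled alone, 5.71 and 5.71 in co-cultured DA3 and 4.62 and 4.77 in lone DA3. It had the largest difference of the list, 3.68 ± 0.19 (limma, adjusted p = 0.000216). C3ar1, the receptor for the anaphylatoxin C3a, was higher by 2.45 ± 0.25 (adjusted p = 0.00159), with 6.14 and 6.06 in co-cultured MBA-15 and 3.72 and 3.59 in lone DA3. On the DA3 side were Clu, the secreted chaperone clusterin that also inhibits the terminal pore (-1.71 ± 0.18, adjusted p = 0.00165), and Itgb2, the beta chain of the integrins that serve as complement receptors 3 and 4 (-2.48 ± 0.24, adjusted p = 0.00143). Itgb2 was at 4.53 and 3.85 in co-cultured MBA-15 and 6.67 and 6.67 in lone DA3, while its partners Itgam and Itgax lay below the array median on all 8 arrays. Leukocytes express Itgb2 and C3ar1 as well. Among the 9 leukocyte markers, whose mean level was 4.00 to 4.31 over the 8 arrays, Cd14 was called higher in co-cultured MBA-15, as C3ar1 was (1.15 ± 0.24, adjusted p = 0.0245), and Cd68 lay lower, as Itgb2 did, without passing (-0.99 ± 0.48, adjusted p = 0.279). The other 7 differed by -0.08 (Lyz2) to 0.26 (Tyrobp). Their part in these differences was not tested. The calls of Colec12, C3ar1, Clu and Itgb2 against lone DA3 held without any 1 array.

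Against co-cultured DA3 5 of 44 were again called higher (Colec12, C1s1, C3ar1, Masp1 and C1s2, by 2.66, 2.38, 1.89, 1.70 and 1.32) and 2 lower, beside 8.28% and 4.48% of all genes, with a median of -0.09 against -0.07 over all genes. The lower ones were Clu (-1.08 ± 0.18, adjusted p = 0.0108) and Cd93, a lectin-like surface protein once taken for a C1q receptor. Itgb2 did not pass here (-0.77 ± 0.24, limma, adjusted p = 0.0965). Cd93 spread widely within DA3, with 7.64 and 6.14 in co-culture and 6.73 and 5.51 alone, against 4.26 and 4.22 in co-cultured MBA-15. Its difference was -2.65 ± 0.57 (limma, adjusted p = 0.0295), lost without either array of co-cultured MBA-15 (0.0904 and 0.108) or array 1 of co-cultured DA3 (0.0762). That of Masp1 (adjusted p = 0.0276) was lost without array 1 of co-cultured MBA-15 (0.0833) or any 1 of the 4 DA3 arrays (0.0622 to 0.0895). With a block for the assay C1s1 (0.0559), Masp1 (0.061) and Clu (0.0555) missed the threshold, as did C1s1 (0.052), C1s2 (0.0628), Masp1 (0.0719) and Cd93 (0.0714) with the arrays of the 2 groups alone.

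**Figure D3:**
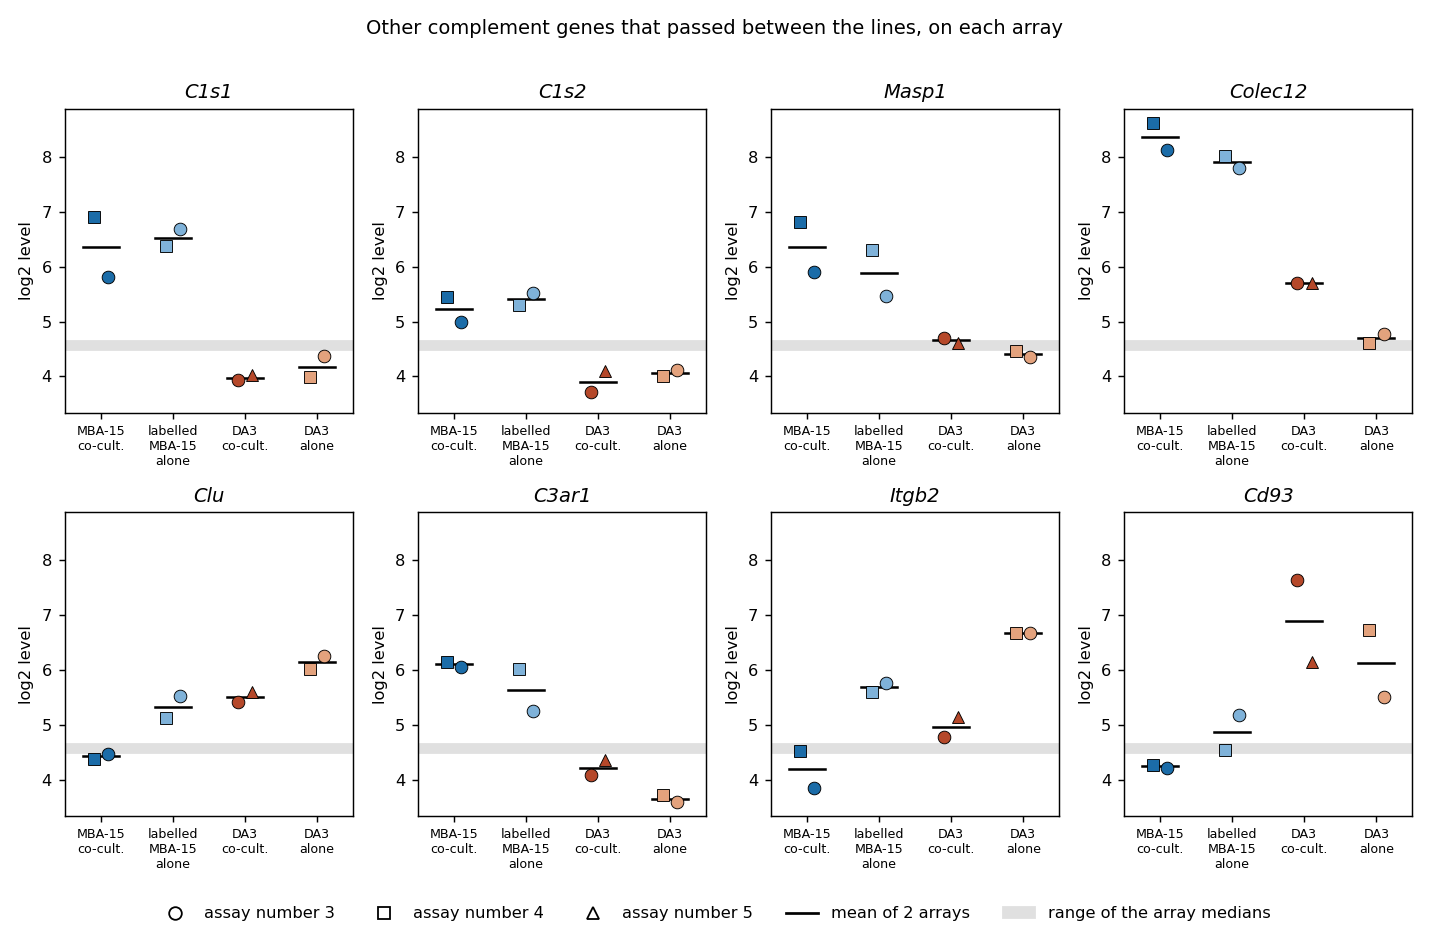
Log2 level on each array of the 8 other complement genes that passed between co-cultured MBA-15 and either DA3 group; symbols give the assay number, lines the mean of 2 arrays and the grey band the range of the array medians. C1s1, C1s2, Masp1, Colec12 and C3ar1 are high on the 4 MBA-15 arrays, while Clu and Itgb2 are lowest in co-cultured MBA-15 (4.43 and 4.19 on average) or, for Cd93, highest in DA3.

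Within the lines 0 of the 44 were called in either co-culture comparison (limma), with 3 genes in MBA-15 and 6 in DA3 at an unadjusted p under 0.05, which 9.8% and 14.9% of all genes had. Itgb2 had the largest value in both. It was at 4.77 and 5.14 in co-cultured DA3 against 6.67 and 6.67 in lone DA3, a difference of -1.71 ± 0.24 (adjusted p = 0.094). With a mean-variance trend the adjusted p was 0.0138, among genes with a mean level of at least 5 it was 0.0294, and with an MBA-15 share matched the difference was -1.65 (0.0457). In MBA-15 it was at 5.60 and 5.77 on the arrays labelled alone, a difference of -1.49 ± 0.24 (adjusted p = 0.0591). It passed with the trend (0.0148), among the brighter genes (0.0214) and without array 1 of co-cultured MBA-15 (0.0424), and stood at 0.23 with the DA3 share mixed in. Clu differed by -0.89 ± 0.18 in MBA-15 (adjusted p = 0.104), and by 0.18 with the DA3 share mixed in. In DA3 Clu differed by -0.63 ± 0.18 (adjusted p = 0.23). Colec12 differed by 1.01 ± 0.19 in DA3 (adjusted p = 0.146), beside the 5.28% and 4.70% of MBA-15 expression on these arrays, and by 0.34 with that share matched. In the test of the difference between the lines 0 of 44 were called and 0 had an unadjusted p under 0.05, the largest value being that of Cd93 (1.39 ± 0.81, adjusted p = 0.914).

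**Figure D4:**
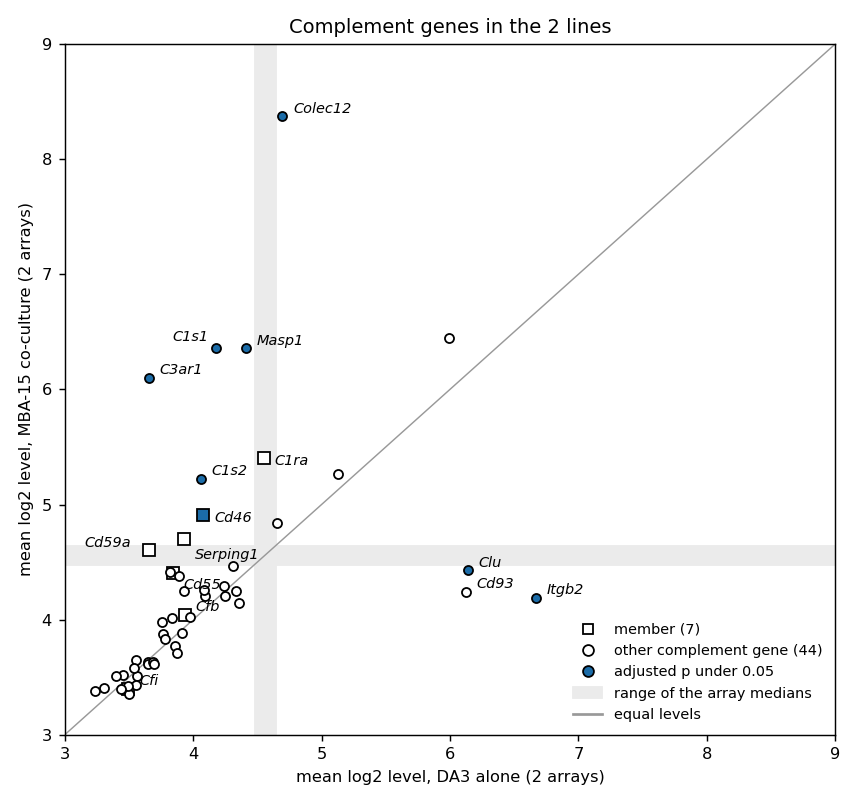
Mean log2 level in co-cultured MBA-15 against lone DA3 for the 7 members (squares) and 44 other complement genes (circles), filled where the adjusted p is under 0.05; the line marks equal levels and the grey bands the range of the array medians. Most genes lie below both bands near the line, with C1s1, Masp1, C3ar1 and Colec12 far above it, 5 members moderately above it, and Clu, Cd93 and Itgb2 below it.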

How the data were processed

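The authors deposited log2 expression values per probe set, for which the submitters' processing notes name RMA and Partek 6.5 without parameters. The log2 scale was read from the range of the values. RMA normalizes between arrays, so a difference is relative to the other genes of an array. Of 35556 probe sets 21789 had 1 symbol, 1621 several and 12146 none in the platform annotation. The probe set with the highest mean was kept for each gene, which left 19938 genes. Contrasts of 4 group means came from limma 3.58.1 (R 4.3.3) over all 8 arrays, with 4 residual and 2.6 prior degrees of freedom. The p-values are two-sided and adjusted after Benjamini and Hochberg over all genes, at a threshold of 0.05. The number of arrays limits the precision. Groups and replicate numbers come from the titles and assay numbers from the descriptions, which do not say what an assay is. RNA shares are medians on the linear scale over genes for which co-cultured MBA-15 and lone DA3 differ by more than 4 log2 units, members left out. The DA3 share rests on genes high in DA3 only. Members, lists and tests were chosen with earlier results of these data known. Named are all members, Epcam, and of the other complement genes those that passed and the 4 largest differences of each comparison where they add to the text. Genes of like pattern were to be named for members whose group means span 2 log2 units, which 0 members did.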

Additional observations from a re-analysis of the deposited data

How the results depend on the processing

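The settings tried were the mean of a gene's probe sets, a filter on dim genes, a second quantile normalization, a mean-variance trend, blocks, fewer arrays and the mixing in of the other line's RNA. The dim filter (mean level of at least 5) left 9233 genes and 0 of the 7 members, so it gave no member count. In co-cultured MBA-15 against the arrays labelled alone, 169 genes were called, and 281 with the dim filter, 326 with the trend, 28 with the compared groups only, 0 with the DA3 share mixed in, and 13 to 198 with 1 array left out. In DA3, 8 were called, and 83, 120 and 0 under the first 3 of these, 27 with the MBA-15 share mixed in, 3 with the replicate block, 0 with the assay block, 2 without both MBA-15 arrays labelled alone (chosen after seeing the data), and 0 to 3 with 1 array left out. For the difference between the lines 12 became 56 (dim filter), 29 (quantile), 36 (trend), 0 (replicate block, assay block and share mixed in) and 0 to 8. co-cultured MBA-15 against lone DA3 gave 2503 genes, or 995 to 2870 with 1 array left out, and 1 member, or 4 (trend), 2 (replicate block, compared groups only, and without both MBA-15 arrays labelled alone) and 0 to 2. Against co-cultured DA3 2545 genes became 1123 (compared groups only) and 1642 to 2229, and 2 members became 4 (trend), 1 (replicate block), 0 (assay block and compared groups only) and 0 to 2.

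Directions turned only for differences that were not called, and the cause was not tested. With the share mixed in these were, in MBA-15, Cfi (0.03), Serping1 (-0.12), Cd59a (-0.31), Masp1 (-0.16), Clu (0.18), Cd93 (0.69) and Itgb2 (0.23), in DA3 Cd59a (-0.0385) and Cd46 (-0.0377), and for the difference between the lines Serping1 (0.15), Cd55 (0.066) and Cd59a (0.27). Quantile normalization turned Cfb (-0.071), Serping1 (-0.071), Cd55 (-0.0074), Cd59a (-0.091) and Cd46 (-0.15) in DA3 and C1ra (-0.17) in the difference between the lines. The assay block turned Cfb (-0.11), C1ra (0.10) and Cd55 (-0.15) in DA3 and Cd59a (0.19) in the difference. With 1 array left out, the differences in MBA-15 ran from -0.32 to 0.047 for C1ra, -0.31 to 0.46 for Cd59a and -0.20 to 0.57 for Serping1. In DA3 they ran from -0.35 to 0.13 for C1ra, -0.071 to 0.11 for Cd46, -0.036 to 0.30 for Cd55, -0.068 to 0.12 for Cd59a, -0.062 to 0.22 for Cfb and -0.057 to 0.22 for Serping1. For the difference between the lines they ran from -0.21 to 0.27 for C1ra, -0.45 to 0.10 for Cd55, -0.44 to 0.34 for Cd59a and -0.49 to 0.28 for Serping1. For Cfb they ran from -0.0070 to 0.22 against lone DA3 and from -0.11 to 0.17 against co-cultured DA3. The labels do not say whether replicate numbers pair the arrays. Deviations of same-numbered arrays correlated between -0.41 and 0.31 over genes. Both extremes involve co-cultured DA3, whose same-numbered arrays carry other assay numbers. Among the MBA-15 groups and lone DA3 the correlations were 0.01 to 0.21. These values do not decide whether there is a pairing. The dim signal of the members limits every comparison.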
